A study of Homo sapiens with 6 samples.

Results

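The heat shock proteins and cytosolic chaperones of MDA-MB-231 cells are described here after treatment with the kinase inhibitor DCC-2036. They were chosen by gene symbol in the platform's probe-to-gene table: every symbol that starts with HSPA, HSPB, HSPH, HSPD, HSPE, HSP90, DNAJA or DNAJB, the CCT chaperonin genes TCP1 and CCT2 to CCT8 (CCT6A and CCT6B both taken), BAG1 to BAG6, HSF1, FKBP4 and STIP1. HSPA5, HSP90B1, DNAJB9 and DNAJB11, which work in the endoplasmic reticulum, were left out. This gave 57 genes with 62 transcript records out of 17185 named genes. The rule uses symbols and no measured value, but it was written with earlier results of these data known. Each gene is represented by its record with the highest mean intensity over the 6 arrays. HSF2 has no symbol in that table and is named here only through its RefSeq accession, so it is not among the 57.

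MDA-MB-231 is an established line of human breast cancer cells that lack hormone receptors and HER2 amplification. The study compared 3 control cultures (0 μM drug) with 3 cultures given 3.75 μM DCC-2036, all collected at 48 h and described by the submitters as independent experiments, with 1 one-colour NimbleGen array each, called control 1 to 3 and treated 1 to 3. DCC-2036 is rebastinib, a switch-control inhibitor first made against the ABL1 kinase. The labels give neither the vehicle in the control medium nor the passage of the cells, and every culture is of the same line. Median intensities of the named records lay between 292 and 313 on the 6 arrays, and correlations of log2 values across genes were 0.964 to 0.978 within a group and 0.929 to 0.937 between groups. Of markers known for this line, VIM, CD44, ANXA1, CAV1 and AXL stood between the 79.1 and 98.7 percentiles of mean intensity over all named genes. Of 6 luminal markers listed as ones the line should lack, ESR1, PGR, FOXA1 and CDH1 stood between 1.8 and 21.4. ERBB2 and GATA3, from the same list, stood higher, at 81.6 and 55.5. The leukocyte and endothelial markers PTPRC and PECAM1 stood at 12.6 and 11.6.

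Chaperones bind unfolded proteins and help them fold, assemble or be degraded. HSP70 proteins do this in cycles of ATP binding, in which HSP40 proteins (DNAJA and DNAJB) deliver clients and HSP110, BAG and HSPBP1 proteins speed the release of nucleotide. HSP90 takes over partly folded clients, among them many kinases, from HSP70 through the adaptor STIP1, and the CCT ring folds actin and tubulin. HSF1 is the transcription factor that switches on many of these genes under proteotoxic stress by binding repeats of the unit GAA, the heat shock element, in their promoters.

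Members differed in whether exact matches to such elements were found near their starts, so some stretches that carry them are shown before the array values. RefSeq promoter windows (GRCh38.p14, 250 bases before to 50 after the start) were at hand for 50 of the 57 members, in 68 windows. Elements of 3 units were searched as GAANNTTC followed after any 2 bases by GAA, or TTCNNGAA followed after any 2 bases by TTC, which are each other's reverse complement and so cover both strands. They were found in 7 of the 50 genes (14%), against 0.608% of all 27305 genes with a window. The 2-unit forms GAANNTTC and TTCNNGAA, each its own reverse complement and contained in the longer ones, occurred in 25 of the 50 (50%), against 16.2% of all. The 7 genes with a 3-unit match were HSP90AA1, HSP90AB1, HSPD1, HSPA6, HSPA8, DNAJA1 and DNAJB6. Only exact matches were counted, so imperfect elements and elements outside the windows would be missed. HSPB1 is added as a gene where only a 2-unit form was matched. Below are the 250 bases before a start of both HSP90 genes, HSPD1, HSPA8 and HSPB1, each from a window with a match. The matching letters are in capitals.
HSP90AA1 promoter (chr14:102087045-102087294, minus strand): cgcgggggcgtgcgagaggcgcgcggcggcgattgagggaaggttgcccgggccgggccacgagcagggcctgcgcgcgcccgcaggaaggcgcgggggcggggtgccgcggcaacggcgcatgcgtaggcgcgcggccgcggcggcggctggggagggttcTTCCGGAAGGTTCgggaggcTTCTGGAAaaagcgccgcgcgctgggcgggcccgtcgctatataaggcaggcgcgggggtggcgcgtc
HSP90AB1 promoter (chr6:44247693-44247942, plus strand): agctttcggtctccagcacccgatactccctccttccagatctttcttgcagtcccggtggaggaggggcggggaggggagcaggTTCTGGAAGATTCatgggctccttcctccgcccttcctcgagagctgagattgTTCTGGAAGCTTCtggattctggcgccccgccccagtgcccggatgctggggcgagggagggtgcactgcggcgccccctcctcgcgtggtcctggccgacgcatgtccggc
HSPD1 promoter (chr2:197499841-197500090, minus strand): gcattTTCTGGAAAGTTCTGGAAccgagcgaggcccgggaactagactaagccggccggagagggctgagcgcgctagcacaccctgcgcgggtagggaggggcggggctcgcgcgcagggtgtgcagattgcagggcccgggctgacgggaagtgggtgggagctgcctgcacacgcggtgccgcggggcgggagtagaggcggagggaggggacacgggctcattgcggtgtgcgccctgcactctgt
HSPA8 promoter (chr11:123062137-123062386, minus strand): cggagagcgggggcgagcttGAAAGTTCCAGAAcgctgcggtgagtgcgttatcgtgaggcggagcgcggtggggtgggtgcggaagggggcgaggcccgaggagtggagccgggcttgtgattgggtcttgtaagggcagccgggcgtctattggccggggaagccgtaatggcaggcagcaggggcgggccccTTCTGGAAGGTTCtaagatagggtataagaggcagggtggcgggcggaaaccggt
HSPB1 promoter (chr7:76302423-76302672, plus strand): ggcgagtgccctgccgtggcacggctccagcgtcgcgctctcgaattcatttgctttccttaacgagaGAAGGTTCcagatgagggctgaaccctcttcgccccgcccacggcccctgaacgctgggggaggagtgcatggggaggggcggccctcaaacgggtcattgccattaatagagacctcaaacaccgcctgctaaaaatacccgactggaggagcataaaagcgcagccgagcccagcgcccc

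The question put to the arrays was which of these genes differ between treated and untreated cells. After 48 h with DCC-2036, HSF1, the small heat shock proteins HSPB1 and HSPB6, the co-chaperones BAG3, DNAJB2 and HSPBP1 and the divergent HSP70 relative HSPA12B were higher, between 2.06-fold and 4.03-fold. HSP90AA1 and its partners STIP1 and FKBP4, 6 of 9 CCT genes and the mitochondrial chaperones HSPD1 and HSPA9 were lower, between 1.48-fold and 2.40-fold, with HSPBAP1, HSPA13 and HSPH1. In limma's test over all 17185 genes, 7 of the 57 members rose, 14 fell and 36 did not pass an adjusted p (Benjamini-Hochberg) of 0.05. Among all genes 13.1% rose and 16% fell at that threshold (29.1% in either direction). Of the members 12.3% rose and 24.6% fell. These backgrounds, here and below, count genes of every intensity, whereas 41 of the 57 members were not below the median intensity. With genes below that median left out, 6 of the 41 members rose and 16 fell. Of all genes left, 2226 rose and 2635 fell, nearly as many as the 2257 and 2745 among all 17185. Background shares among brighter genes were therefore higher. Against those, fewer members rose in proportion, and the excess of falls was smaller. The members' median log2 change was -0.24 and that of all genes 0.02.

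Most falls were small: 11 of the 14 were under 2-fold and 3 were larger, while all 7 rises were at least 2-fold. Among all genes, 8.50% fell and 6.16% rose at least 2-fold with an adjusted p under 0.05. Of the 2745 genes that fell, 1285 were under 2-fold, and of the 2257 that rose, 1058 rose at least 2-fold. All 3 treated values lay below all 3 control values in 24 members (42.1%), against 24.3% of all genes, and above them in 7 members (12.3%), against 22.2%. The 14 lower members numbered 6 without control 1, 8 without control 2, 7 without control 3, 9 without treated 1 or treated 2 and 10 without treated 3. The 7 higher ones numbered 5 without control 1 or treated 2 and 6 without any other array. Each labelling used 1 μg of double-stranded cDNA, per the labels' protocols, so values are relative to the RNA collected. Fewer cells of a kind and less RNA per cell cannot be told apart. In 8 members the mean intensity was among the dimmest 25% of genes, and none of these passed.

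**Figure D1:**
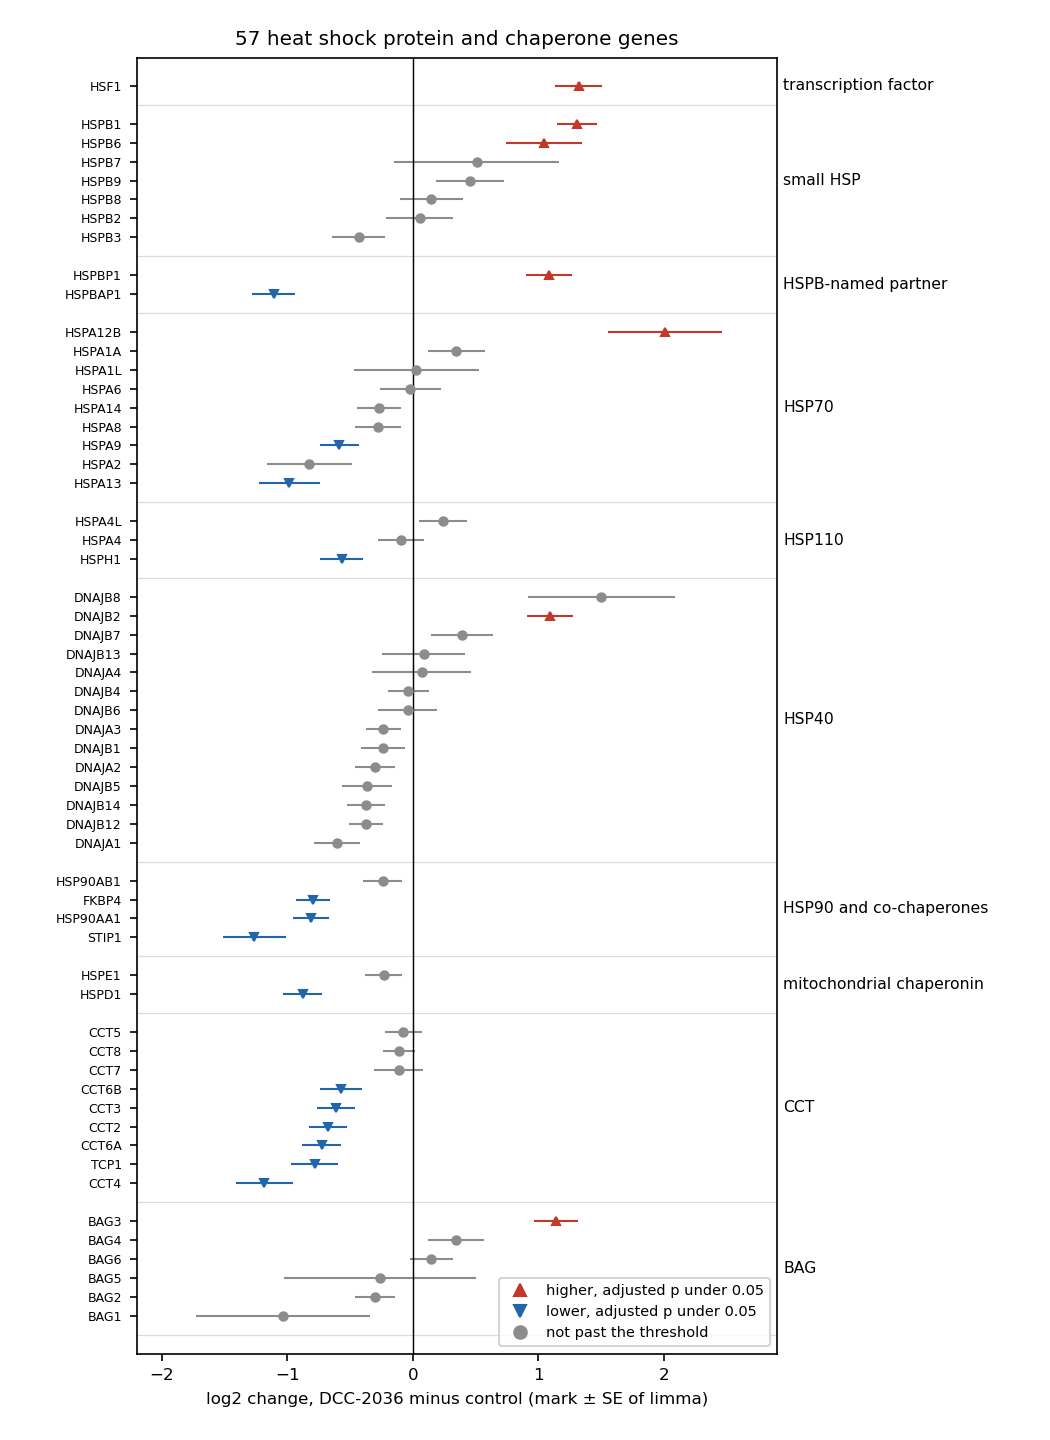
Log2 change (DCC-2036 minus control) of the 57 genes by role, with limma's standard error as a bar. Upward red triangles mark the 7 genes that rose, downward blue triangles the 14 that fell and grey circles the 36 that did not pass; all 9 CCT marks and all 4 HSP90 and co-chaperone marks lie below 0.

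HSF1, the heat shock transcription factor, had intensities of 3296, 3669.9 and 4397 in controls 1, 2 and 3 and 8232, 9018 and 11167 in treated 1, 2 and 3. Its lowest treated value was well above its highest control value. The log2 change was 1.32 ± 0.19 (limma standard error, adjusted p = 0.00454), or 2.5-fold, and the call held in every alternative that left the threshold as it was. HSF2, a related factor outside the 57, had 429, 526 and 441 in the untreated arrays and 528, 493 and 515 in the treated arrays, with overlapping groups (0.14 ± 0.15, limma adjusted p = 0.511). Of 4 further genes of HSF biology, 3 were measured, and all of them passed, against 29.1% of all genes. HSF4, a factor best known from the lens, rose 1.67-fold and HSBP1, a small protein that binds the HSF1 trimer, 1.41-fold, while HSF2BP, a partner of HSF2 with a role in meiotic recombination, fell 1.95-fold. HSF4 lost its call without control 1 (0.59), treated 1 (0.71), treated 2 (0.79), control 3 (0.74) or treated 3 (0.73), and HSBP1 without any 1 of the 6 arrays (0.44 to 0.58).

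Small heat shock proteins hold unfolded proteins in a soluble state without using ATP. HSPB1 (HSP27), the most studied of them and a binder of actin filaments, had 11219, 12432 and 14873 in the untreated arrays and 31472, 30405 and 32734 in the treated arrays. The groups were far apart, and the change was 1.31 ± 0.16 (limma adjusted p = 0.00288), or 2.47-fold, the smallest p of all members. HSPB6 (HSP20), found mostly in muscle, gave 226, 349 and 298 without the drug and 695, 764 and 391 with it. Its value in treated 3 was close to the highest control value, and the change of 1.04 ± 0.31 (limma adjusted p = 0.0463) lost its call without control 1 (0.87), treated 1 (0.93), control 2 (1.19), treated 2 (0.86) or control 3 (1.07). The other 5 of 7 did not pass, so 28.6% of the small heat shock proteins rose, against 13.1% of all genes. HSPB8, the partner of BAG3 in selective autophagy, had a log2 change of 0.15 ± 0.25 between overlapping groups. HSPB3 gave -0.43 ± 0.21 (limma adjusted p = 0.177) and HSPB2, HSPB7 and HSPB9 between 0.05 and 0.51; HSPB2, HSPB3 and HSPB7 were among the dimmest 25% of genes.

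A pair of genes that carry the HSPB prefix without being small heat shock proteins went in opposite directions. HSPBP1, a nucleotide exchange factor of HSP70, had 649, 666 and 909 in the untreated arrays and 1507, 1715 and 1459.6 in the treated arrays, 2.12-fold higher (1.09 ± 0.18, limma adjusted p = 0.00788). HSPBAP1, a protein that binds HSPB1, had 619, 673 and 619.9 and then 259, 355 and 279, 2.16-fold lower (-1.11 ± 0.17, limma adjusted p = 0.00549). Neither gene's groups overlapped, and both calls held in every alternative that left the threshold as it was. Both passed (100%), against 29.1% of all genes.

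Among the 6 BAG genes, most of whose products dock on HSP70 through a BAG domain, 1 rose (16.7%, against 13.1% of all genes) and 5 did not pass. BAG3, which links HSP70 to small heat shock proteins and to autophagy and is a known HSF1 target, had 6288, 8279 and 6975 in the untreated arrays and 13792, 16416 and 17198 in the treated arrays. Every treated array was brighter than every control array, by 2.21-fold on average (1.14 ± 0.17, limma adjusted p = 0.00544). BAG6, a guard of newly made membrane proteins, had a log2 change of 0.15 ± 0.17, BAG4 of 0.34 ± 0.22 and BAG2, an inhibitor of the ubiquitin ligase STUB1, of -0.30 ± 0.16, the last with a limma adjusted p of 0.206 although its groups did not overlap. BAG1 and BAG5 varied more among replicates than between groups. BAG1 read 617, 232 and 97.0 in the untreated arrays and 69.1, 132 and 175 in the treated ones, and BAG5 622, 323 and 167 and 112, 729.7 and 236, so that no difference could be read for either.

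**Figure D2:**
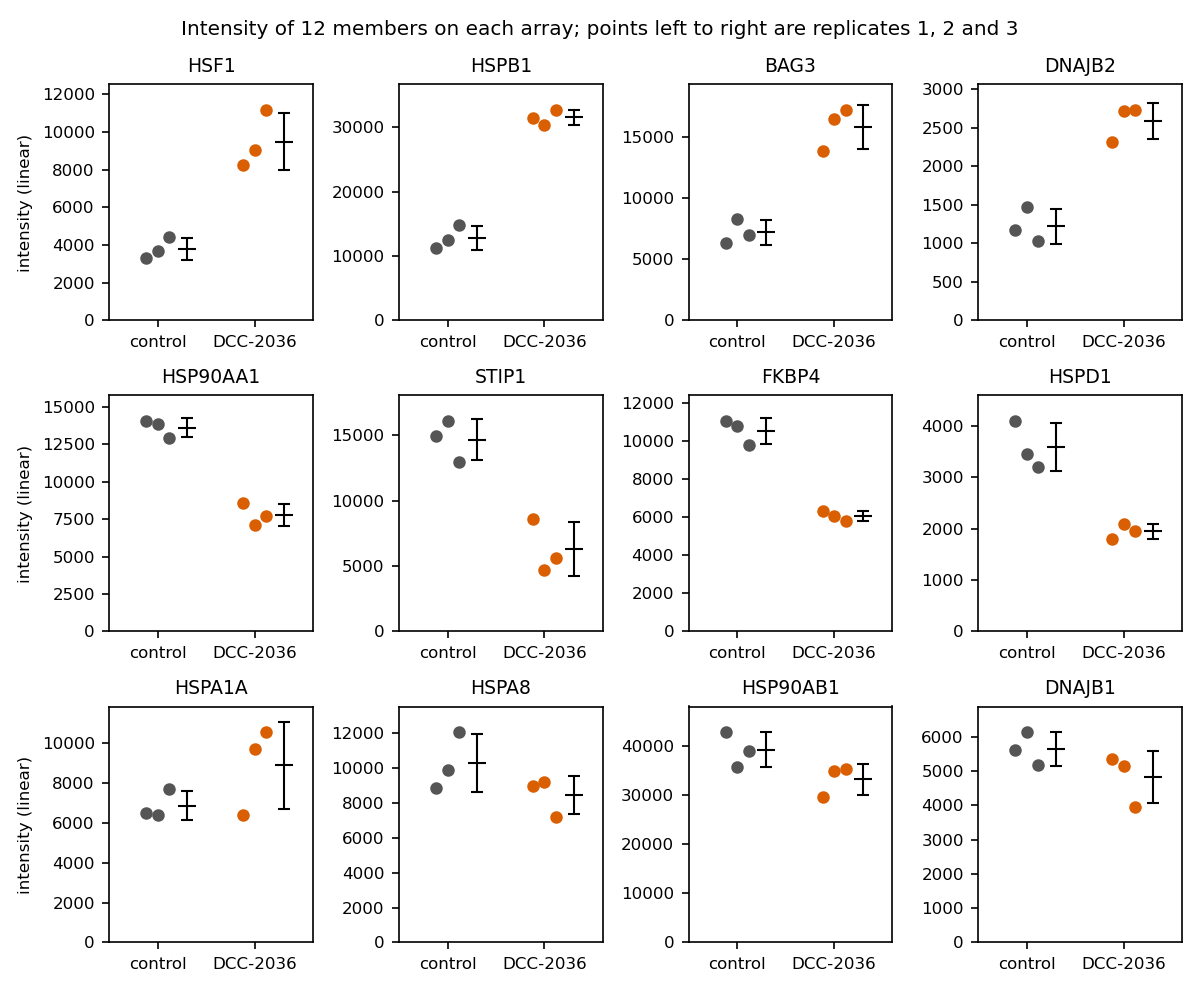
Linear intensity of 12 members on each array, control in grey and DCC-2036 in orange, with mean ± SD of 3 arrays in black. HSF1, HSPB1, BAG3 and DNAJB2 rose, HSP90AA1, STIP1, FKBP4 and HSPD1 fell with no overlap, and HSPA1A, HSPA8, HSP90AB1 and DNAJB1 did not pass.

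The 9 HSP70 genes, counting the divergent HSPA12B and the HSP70-like HSPA13, divided into 1 that rose, 2 that fell and 6 that did not pass. Rises were 11.1% of them, against 13.1% of all genes, and falls 22.2%, against 16%. HSPA1A, the stress-induced HSP70, had 6480.1, 6377 and 7706 in the untreated arrays and 6385, 9678 and 10562 in the treated arrays. Its value in treated 1 lay among the controls and those in treated 2 and 3 above them, which gave a log2 change of 0.35 ± 0.23 (95% interval -0.20 to 0.89, limma adjusted p = 0.306). HSPA1B, whose coding sequence is nearly the same, has no record named here, and the array may not tell its signal apart from that of HSPA1A. HSPA6, an HSP70 that is normally made only under severe stress, had a log2 change of -0.02 ± 0.24 (95% interval -0.61 to 0.57), with intensities of 1289, 962 and 754 and 804, 1127 and 993. HSPA8, the constitutive HSC70, gave 8870.4, 9907 and 12078 in the untreated arrays and 8961, 9202 and 7202 in the treated ones (-0.28 ± 0.18, 95% interval -0.72 to 0.17, limma adjusted p = 0.307). HSPA6 and HSPA8 both hold elements of 3 units in their promoters. HSPA1L (0.03 ± 0.50) and HSPA2 (-0.83 ± 0.34, limma adjusted p = 0.119), mainly testis forms, were among the dimmest 25% of genes, and HSPA14, a ribosome-bound HSP70, gave -0.27 ± 0.17.

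HSPA9 (mortalin), the HSP70 of mitochondria that pulls in imported proteins, had 12827, 10844 and 9958 in the untreated arrays and 7381, 7999.8 and 6955 in the treated arrays. Its groups were apart, but the change of -0.58 ± 0.16 (limma adjusted p = 0.0358) lost its call without any 1 of the 6 arrays (-0.67 to -0.48). HSPA12B, an atypical family member described in endothelial cells, read 73.8, 49.4 and 181 in the untreated arrays and 323, 357 and 385 in the treated arrays. This was the largest log2 change of all 57 (2.01 ± 0.46, 4.03-fold, limma adjusted p = 0.0206), from uneven controls, and it was lost without control 1 (1.89), treated 2 (2.00) or treated 3 (1.95). HSPA13, a microsomal protein with an HSP70-like ATPase domain, was dim, with 113, 99.6 and 111 against 37.4, 66.8 and 63.2 (-0.98 ± 0.25, limma adjusted p = 0.0279), and lost its call without control 1 (-0.95), control 2 (-1.04) or control 3 (-0.96), and also with limma's trended and robust variance (the change itself is the same there).

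Of the 3 HSP110 genes, whose products free HSP70 from ADP and hold clients themselves, HSPH1 (HSP105) fell from 988, 957 and 874 to 628, 541 and 746 (-0.57 ± 0.17, limma adjusted p = 0.0489). The treated values all lay below the controls, though not by much in treated 3, and the call was lost without control 1 (-0.53), treated 1 (-0.56), control 2 (-0.55), treated 2 (-0.45) or control 3 (-0.62), and also after median centring or quantile normalization (-0.50 in both). HSPA4 had a log2 change of -0.10 ± 0.18 and HSPA4L of 0.24 ± 0.19, with overlapping groups in both. Falls were 33.3% of these 3 genes, against 16% of all genes, and rises 0%, against 13.1%.

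The 14 HSP40 genes, which set the client choice of HSP70, held 1 rise, 0 falls and 13 genes that did not pass. Rises were 7.1% of them, against 13.1% of all genes, and falls 0%, against 16%. DNAJB2 (HSJ1), a co-chaperone with ubiquitin-binding motifs that steers clients to the proteasome, had 1173, 1473 and 1027 in the untreated arrays and 2316, 2715 and 2736 in the treated arrays, 2.13-fold higher (1.09 ± 0.18, limma adjusted p = 0.00774). DNAJB1 (HSP40), the classical heat-induced partner of HSPA1A, gave 5612, 6150.5 and 5172 and 5342, 5161 and 3949, with a log2 change of -0.24 ± 0.18 (95% interval -0.66 to 0.19, limma adjusted p = 0.358). DNAJA1, a farnesylated cytosolic HSP40, came closest to a fall, with 4425, 3481 and 3137 against 2633, 2154 and 2413. Its groups were apart and its adjusted p of 0.0506 in limma (-0.61 ± 0.18) just missed the threshold. DNAJB12 (-0.38 ± 0.14) and DNAJB14 (-0.38 ± 0.15), both anchored in the membrane of the endoplasmic reticulum, and DNAJA3, the mitochondrial TID1 (-0.24 ± 0.14), also lay below every control array without passing. With DNAJA1, 4 of the 14 HSP40 genes (28.6%) lay so, near the 24.3% of all genes. DNAJB8 was bright on treated 2 and 3 only, with 100.0, 83.1 and 109 in the untreated arrays and 107, 348 and 563 in the treated arrays (1.5 ± 0.58, limma adjusted p = 0.103). It passed without treated 1 (2.18). DNAJA2, DNAJA4, DNAJB4, DNAJB5, DNAJB7 and DNAJB13 had log2 changes between -0.36 in DNAJB5 and 0.39 in DNAJB7, with overlapping groups, and DNAJA4, DNAJB7 and DNAJB13 were among the dimmest 25% of genes.

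DNAJB6, which prevents aggregation of polyglutamine proteins, was 1 of 5 members with more than 1 transcript record, and its records differed. The brighter one, NM_058246, which RefSeq lists for the long nuclear isoform, had 9899.5, 8661 and 6853 in the untreated arrays and 7079, 7140.2 and 10699.5 in the treated arrays, with overlapping groups (-0.04 ± 0.23). The other, NM_005494, listed for the short isoform of cytosol and nucleus, had 4896, 4392 and 4629 and 1394, 1852 and 917. In a limma fit over all named records it fell by 1.80 on the log2 scale (SE 0.27, limma adjusted p = 0.005). Within an array, the short record minus the long one was -1.02, -0.979 and -0.566 on the log2 scale in the controls and -2.34, -1.95 and -3.54 in the treated arrays. These did not overlap, with a difference of -1.76 (exact two-sided permutation p = 0.1, the smallest that 3 against 3 arrays allow). The pair was chosen with earlier results of these data known, so this p-value adds no independent evidence. The record pairs of CCT7, DNAJB2 and HSP90AA1 were not tested in this way. The probe sequences were not used here, so which exons each record reads is unknown.

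In the other 4 genes with 2 records both records got the same call. Both DNAJB2 records rose (1.09 and 0.83) and both HSP90AA1 records fell (-0.81 and -0.86), each with an adjusted p under 0.05 in the limma fit over records. The second HSPA8 record, with 6448, 5935 and 6577 in the untreated arrays and 4901, 4724 and 4775 in the treated ones, had a log2 change of -0.40 ± 0.13 and no overlap but did not pass (limma adjusted p = 0.0662). Within an array, the second HSPA8 record minus the brighter one changed by -0.116 on the log2 scale, with overlapping groups (exact two-sided permutation p = 0.6). Neither CCT7 record passed (-0.11 and 0.03).

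**Figure D3:**
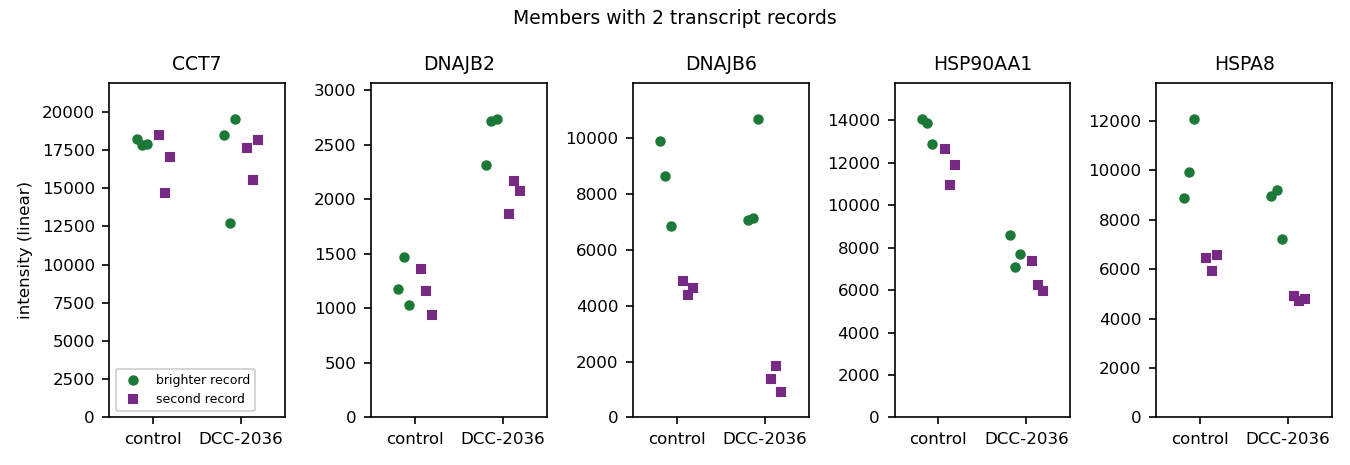
Linear intensity per array of both transcript records of the 5 members that have 2, with the brighter record as green circles and the second as purple squares. The second DNAJB6 record drops from 4392 or more to 1852 or less while the brighter one overlaps between groups.

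HSP90 and the co-chaperones chosen with it were lower as far as they passed, 3 of 4 (75%, against 16% of all genes). HSP90AA1, the stress-inducible cytosolic HSP90, had 14073, 13878 and 12897 in the untreated arrays and 8584, 7105 and 7702 in the treated arrays, 1.75-fold lower (-0.81 ± 0.14, limma adjusted p = 0.00908). HSP90AB1, the constitutive form, read 42943, 35852 and 38988 and 29544, 34873 and 35293, a log2 change of -0.24 ± 0.15 (95% interval -0.61 to 0.13, limma adjusted p = 0.288). The HSP90AA1 value minus the HSP90AB1 value was lower in every treated array than in every control array, with a mean difference of -0.567 on the log2 scale (exact two-sided permutation p = 0.1, the smallest possible). Both promoters printed above hold elements of 3 units, while further windows of both genes held no element.

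STIP1 (HOP), the adaptor that hands clients from HSP70 to HSP90, had 14916, 16113 and 12990.2 in the untreated arrays and 8629.9, 4687 and 5607 in the treated arrays. This was the largest fall among the members, 2.4-fold (-1.26 ± 0.25, limma adjusted p = 0.0135), and treated 1 fell least. FKBP4 (FKBP52), the immunophilin that helps HSP90 mature steroid receptors, went from 11056, 10782 and 9760.3 to 6327, 6063 and 5775 with little spread (1.74-fold, -0.80 ± 0.14, limma adjusted p = 0.00793). HSP90AA1, STIP1 and FKBP4 kept their calls in every alternative that left the threshold as it was; STIP1 did not pass an adjusted p of 0.01, and HSP90AA1 and FKBP4 fell less than 2-fold.

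Of 17 other HSP90 and HSP70 co-chaperones, 0 rose, 4 fell and 13 did not pass, with a median log2 change of -0.06. Falls were 23.5% of this list, against 16% of all genes, and rises 0%, against 13.1%. PIH1D1, a subunit of the R2TP complex that builds kinase and polymerase assemblies with HSP90, fell 2-fold (5212 ± 417 in the untreated arrays and 2611 ± 209 in the treated arrays). CHORDC1, a co-chaperone induced by HSF1, fell 1.74-fold, TTC4, an HSP90-binding protein, 1.64-fold and NUDC, a dynein-linked co-chaperone, 1.5-fold. CHORDC1 lost its call without control 1 (-0.80) or control 2 (-0.73), TTC4 without control 1 (-0.77), control 2 (-0.62), treated 2 (-0.63), control 3 (-0.76) or treated 3 (-0.71) and NUDC without control 1 (-0.55), control 2 (-0.59) or treated 3 (-0.58). CDC37, which brings kinases to HSP90, had a log2 change of 0.28 ± 0.15 and AHSA1, the activator of the HSP90 ATPase, of 0.12 ± 0.15, neither past the threshold; both are named here after their values were seen.

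HSPD1 (HSP60) and HSPE1 (HSP10), the barrel and lid of the mitochondrial chaperonin, are read in opposite directions from a shared promoter. HSPD1 had 4105, 3464 and 3211 in the untreated arrays and 1808, 2093 and 1948 in the treated arrays, 1.84-fold lower (-0.88 ± 0.16, limma adjusted p = 0.00951). HSPE1 had 2910.4, 2368 and 2668 and 2331, 2144 and 2269.8; all treated values were below the controls, but the log2 change of -0.23 ± 0.15 did not pass (95% interval -0.58 to 0.12, limma adjusted p = 0.281). HSPD1 minus HSPE1 was 0.496, 0.549 and 0.267 in the untreated arrays and -0.366, -0.035 and -0.221 in the treated ones on the log2 scale. The ranges were apart (exact two-sided permutation p = 0.1, the smallest possible). The HSPD1 promoter shown above held 2 overlapping elements of 3 units. Another HSPD1 window and the HSPE1 window held no element.

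Of 8 further mitochondrial chaperones and proteases, 0 rose, 3 fell (37.5%, against 16% of all genes) and 5 did not pass. GRPEL2 and GRPEL1, the nucleotide exchange factors of HSPA9, fell 2.11-fold and 1.51-fold, and HSCB, an HSP40 of iron-sulphur cluster assembly, fell 3.93-fold. GRPEL2 read 494, 504 and 509 in the untreated arrays and 260.5, 224 and 229 in the treated arrays. GRPEL1 lost its call without control 2 (-0.55), treated 2 (-0.59), control 3 (-0.56) or treated 3 (-0.56), and HSCB without control 1 (-1.89), control 2 (-2.03) or control 3 (-2.01). TRAP1, the mitochondrial HSP90, had a log2 change of 0.12 ± 0.17 and LONP1, a matrix protease, of -0.01 ± 0.13; neither passed, and both are named here after their values were seen.

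The CCT complex is a double ring with 8 different subunits, each made by its own gene, and CCT6B is a testis-enriched copy of CCT6A. Of these 9 genes, 0 rose, 6 fell (66.7%, against 16% of all genes) and 3 did not pass. All 9 log2 changes were below 0 and the median was -0.61. CCT4 fell most, from 4446, 4567 and 4185 in the untreated arrays to 2675, 1563 and 1733 in the treated arrays (2.27-fold, -1.18 ± 0.23, limma adjusted p = 0.0119), and it kept its call in every alternative that left the threshold as it was, but did not pass an adjusted p of 0.01. Like STIP1, it fell least in treated 1. TCP1 (subunit 1) had 6797, 5218 and 6539 and 3406, 4268 and 3145 (-0.78 ± 0.19, limma adjusted p = 0.025), and CCT2 had 5358, 4252 and 4658 and 2925, 3136 and 2853 (-0.67 ± 0.15, limma adjusted p = 0.0195). CCT6A went from 4094, 3703 and 3121 to 2168, 2151 and 2240.4 (-0.73 ± 0.15, limma adjusted p = 0.0168). The treated CCT6A values lay close together while the controls spread more widely. CCT3 had 6798, 5844 and 6268 and 4073, 3731 and 4568 (-0.61 ± 0.15, limma adjusted p = 0.0263), and CCT6B had 1184, 1004 and 893 and 757, 663 and 643 (-0.57 ± 0.17, limma adjusted p = 0.0449); the array may not tell CCT6A and CCT6B apart. In none of these 6 genes did the groups overlap, which held for all 14 members that fell. Over the whole family, all 3 treated values lay below all 3 control values in 7 of 9 genes (77.8%), against 24.3% of all genes.

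Except for CCT4, these calls were not far from the threshold. TCP1 lost its call without control 1 (-0.71), treated 1 (-0.75), control 3 (-0.74) or treated 3 (-0.69), CCT2 without control 1 (-0.58), control 3 (-0.68) or treated 3 (-0.64), CCT6A without control 1 (-0.64), control 2 (-0.71) or treated 2 (-0.71) and CCT3 without control 1 (-0.56), treated 1 (-0.61), control 2 (-0.67), treated 2 (-0.54) or control 3 (-0.62). CCT6B lost it without any 1 of the 6 arrays (-0.67 to -0.47), and after median centring or quantile normalization (-0.50 in both). TCP1, CCT2, CCT3, CCT6A and CCT6B also lost their calls with the replicate number as a block. The other 3 subunits had changes whose intervals include 0: CCT5 had -0.07 ± 0.14 (95% interval -0.42 to 0.27), CCT7 -0.11 ± 0.20 (95% interval -0.59 to 0.36) and CCT8 -0.11 ± 0.13 (95% interval -0.42 to 0.20). CCT8 read 7204, 7506 and 7325 in the untreated arrays and 6564, 6852 and 7020.5 in the treated ones, a small step with no overlap, whereas CCT7 was low in treated 2 only (CCT7 intensities 18245, 17815 and 17896 against 18486, 12737 and 19534). The per-array median over the 9 genes, relative to the control mean, was 0.11, -0.01 and -0.02 in the controls and -0.63, -0.59 and -0.67 in treated 1, 2 and 3. Whether the 6 lower subunits differ from the other 3 was not tested.

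**Figure D4:**
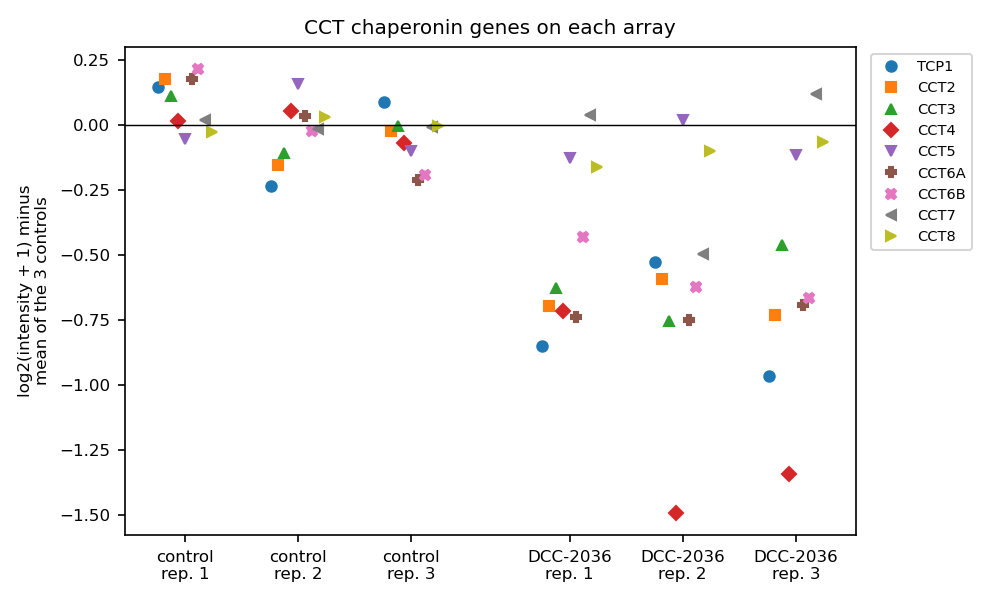
Log2(intensity + 1) of the 9 CCT genes on each array, relative to the mean of the 3 control arrays. On the treated arrays CCT4 lies lowest in replicates 2 and 3, TCP1, CCT2, CCT3, CCT6A and CCT6B lie below their controls, and CCT5, CCT7 and CCT8 lie near 0 apart from CCT7 in replicate 2.

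Of 9 genes that feed or assist CCT, 0 rose, 1 fell (11.1%, against 16% of all genes) and 8 did not pass. The 1 that fell was PFDN6, a subunit of prefoldin, which captures new actin and tubulin chains for CCT. PFDN6 had 2956, 2932 and 2858 in the untreated arrays and 1095, 1258 and 1036 in the treated arrays, 2.59-fold lower (-1.37 ± 0.14, limma adjusted p = 0.00182). The other 8 genes had log2 changes between -0.33 and 0.37.

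HSF1 targets that are not among the 57 were also mixed: 3 of the 12 on the arrays rose, CHORDC1 fell and 8 did not pass. Rises were 25% of this list, against 13.1% of all genes, and falls 8.3%, against 16%. IER5, an early gene whose product activates HSF1, rose 2.76-fold (1125 ± 178 in the untreated arrays and 3089 ± 207 in the treated arrays). HMOX1, a haem-degrading enzyme that NRF2 also induces, rose 2.65-fold (1244 ± 117 in the untreated arrays and 3294 ± 105 in the treated arrays) and ZFAND2A, a proteasome-binding protein induced by arsenite, 2.07-fold (2438 ± 175 in the untreated arrays and 5066 ± 711 in the treated arrays). SERPINH1, the collagen chaperone HSP47, did not pass (0.26 ± 0.16), and CRYAB, a small heat shock protein, was dim in both groups (30.4 ± 2.43 in the untreated arrays and 25.6 ± 2.91 in the treated arrays). SERPINH1 and CRYAB are named here after their values were seen.

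The promoter elements can be set beside the calls. An element of 2 units was in the windows of 2 of the 5 genes that rose and had a window (HSPB1 and HSPB6), 8 of the 12 that fell and 15 of the 33 that did not pass. Elements of 3 units were in 0, 2 and 5 of these, HSP90AA1 and HSPD1 being the 2 that fell. A match is a description of letters in a window and not a binding site, and no binding of HSF1 was measured.

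Among 28 DNAJC genes, the remaining and most varied HSP40 class, 2 rose, 7 fell and 19 did not pass. Rises were 7.1% of this class, against 13.1% of all genes, and falls 25%, against 16%. DNAJC9, which is also a histone chaperone, fell 3.92-fold (3268 ± 334 in the untreated arrays and 843 ± 175 in the treated arrays), DNAJC6 (auxilin), which uncoats clathrin vesicles, 4.27-fold, DNAJC17, a nuclear protein, 1.86-fold and DNAJC13, an endosomal protein, 1.87-fold. DNAJC13 lost its call without control 2 (-0.86). The endoplasmic reticulum members left out at the start did not share one pattern. HSPA5 (BiP), the HSP70 of that compartment, rose 4.95-fold, from 303, 467 and 536 in the untreated arrays to 1761, 2352 and 2227 in the treated arrays (limma adjusted p = 0.00213). DNAJB9, a co-chaperone of HSPA5, rose 1.88-fold but lost its call without treated 1 (0.75), control 2 (0.88), treated 2 (0.95) or control 3 (0.75). DNAJB11 (0.44 ± 0.13, limma adjusted p = 0.0508) and HSP90B1 (-0.05 ± 0.17) did not pass. Rises were 50% of these 4 genes, against 13.1% of all genes, and falls 0%, against 16%.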

How the data were processed

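The intensity values were made by the authors with RMA (version unstated), per the submitters' processing notes, from Cy3-labelled double-stranded cDNA on one-colour NimbleGen arrays, per the labels' protocols. The deposited table holds 45033 transcript records on 6 arrays on a linear scale and was used without further normalization. The background method, scanner and genome build were not given in the sources used here. The table has no detection, slide or scan column, so absence could not be called and no batch could be tested. Gene symbols came from the platform annotation (18188 records, each with 1 symbol) or by accession in the RefSeq table of GRCh38.p14 (678 records), which gave 17185 genes.

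Values were analysed as log2(intensity + 1) in R 4.3.3 with limma 3.58.1, by lmFit followed by eBayes in a two-sided test without covariates, over all named genes with no filter, with Benjamini-Hochberg adjustment and a threshold of 0.05. Standard errors and 95% intervals are limma's, and a fold is 2 to the power of the log2 change. The procedure was tested on simulated data with 200 of 17185 genes changed. It recovered 20.9% of changes of 1 on the log2 scale and 64.3% of changes of 2, with 4.33% false calls. A member that did not pass may therefore still differ. More genes passed on the real arrays, so these shares may not hold for them. The submitters call the experiments independent without saying how the cultures were kept apart, so p-values measure only the spread between these arrays, and 3 arrays per group limit their precision. Every member past the threshold is named, with fixed members beside them, and up to 4 genes of each outside list with the smallest p. The members and lists were chosen with earlier results of these data known. Promoter sequences come from RefSeq. Alternatives were other normalization, 16 in place of 1 added before the log, filters on dim genes, other variance models, array weights, a replicate block, other choices of record or name, other thresholds and leaving out each array. Python 3.11.15 made the tables and figures.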

Additional observations from a re-analysis of the deposited data

How the results depend on the processing

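Of the 21 called members, 11 kept their call in every alternative that left the threshold at an adjusted p of 0.05 with no minimum fold: HSF1, HSPB1, BAG3, DNAJB2, HSPBP1, HSPBAP1, HSP90AA1, STIP1, FKBP4, HSPD1 and CCT4. None of the 21 changed sign, whereas 5 others (DNAJA1, DNAJB12, DNAJB14, DNAJB6 and DNAJB8) passed in some alternative only, DNAJB6 through its second record (-1.80) or the mean of both. With 1 array left out, 5 to 7 members rose and 6 to 10 fell, and 1421 to 1886 of all genes rose and 1721 to 2307 fell, in fits with fewer arrays. The main counts over all genes were 2257 higher and 2745 lower. With the replicate number as a block, 6 members and 1793 genes fell and 6 members and 1376 genes rose. The 9 called members that lost their call there were TCP1, CCT2, CCT3, CCT6A, CCT6B, HSPA9, HSPA13, HSPH1 and HSPB6. The replicate numbers are not known to pair the cultures: deviations of same-numbered arrays from their group means correlated at -0.08, 0.04 and -0.09. At an adjusted p of 0.01, 4 members and 1291 genes fell and 5 members and 884 genes rose. At an adjusted p of 0.05 with a change of at least 2-fold, 3 members and 1460 genes fell and 7 members and 1058 genes rose. Under the other alternatives the member counts stayed between 6 and 8 higher and 12 and 16 lower. Whether near-identical copies such as HSPA1A and HSPA1B share signal was not tested, and no signal over background is given for the 8 dim members.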
